A study of Drosophila melanogaster with 6 samples.

Results

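The genes described here are the noncoding genes of whole adult male Drosophila melanogaster in which the nuclear receptor gene ERR (dERR, the estrogen-related receptor) had been removed or left in place. They were chosen by biotype and measured level: genes whose deposited biotype is not protein-coding, whose name does not begin with the mitochondrial prefix, and whose mean normalized count over the 6 libraries was at least 50. The rule gave 188 of the 13035 genes in the table. They comprised 152 of 370 genes annotated as ncRNA, 24 of 56 pseudogenes, 9 of 29 miRNA precursors and 3 of 28 snoRNAs, and none of the 3 snRNA or 2 rRNA genes reached the level. Since the members were selected on their mean normalized count, their levels are given as a description. The genes nearest to the limit were CR43608 at 50.6 and CR43957 at 50.7 just inside it, and CR43809 at 49.9 and CR43802 at 49.5 just outside it. In 177 members both group means were at least 50. Of the other 11, CR43634 and CR43806 were lower in the mutants and met the rule through their control libraries.

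All flies were males of 1 genotype, yw, hsFLP;; dERR[conditional] / dERR2, which pairs a conditional dERR allele with the mutant allele dERR2 and carries the FLP recombinase under a heat-shock promoter. The mutants were heated for 1 h on day 5 and again on day 6 AEL (after egg laying), whereas the controls were not heated, so loss of ERR and the earlier heat cannot be told apart. RNA was taken from whole flies at day 6 of adult life and enriched for polyadenylated transcripts, with 3 libraries in each group. The labels do not say whether the 3 libraries came from separate cultures, so p-values measure the spread between these libraries.

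Noncoding genes give rise to RNAs that act without being translated. Long noncoding RNAs can hold together protein complexes on chromatin or in nuclear bodies, snoRNAs guide the chemical modification of other RNAs and are often cut from introns, and miRNA precursors are processed from longer host transcripts into short repressors of mRNAs. Pseudogenes are copies of genes that have lost an intact reading frame. Mature snoRNAs and miRNAs carry no poly(A) tail, so in a poly(A)-selected library the reads over a small-RNA gene can come from the long transcript that contains it.

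The libraries held 13987814 to 16102936 counted reads. The counts of ERR were 373, 497 and 539 in the controls and 112, 119 and 107 in the mutants, a log2 change of -2.03 ± 0.13 (SE; limma adjusted p = 3.58e-06). Testis, eye, muscle and brain markers were present in every library, brain by elav alone. Of the genes for female products, Yp1 and Yp2 did not exceed 23.2 in any library. Yp3 was 150 to 193 in the controls and 85.2 to 126 in the mutants. Cp15 was 74.1 to 82.2 in the controls and 74.4 to 105 in the mutants. The flight muscle actin Act88F was 1582 to 1821 in the controls and 6458 to 8041 in the mutants. The other muscle marker, Mhc, overlapped between the groups, at 44142 to 51267 in the controls and 43676 to 59944 in the mutants. The fat body storage protein gene Lsp2 was 1199 to 2118 in the controls and 17.9 to 59.7 in the mutants. The part of muscle and fat body in the members' changes was not tested. The summed level of 4 accessory gland markers, Acp26Aa, Acp36DE, Acp70A and Dup99B, was 52591 to 60965 in the controls and 19751 to 23665 in the mutants, and each of the 4 was lower in the mutants. The summed level of 5 testis markers was 20301 to 25009 in the controls and 24833 to 29669 in the mutants. In whole flies, fewer cells of a type and less RNA per cell cannot be told apart.

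Of the 188 noncoding genes, 23 differed between mutants and controls at an adjusted p under 0.05 (limma on log2 normalized counts, adjusted over all genes). The mutants were higher for 6 of them and lower for 17. This is 12.2% of the members, against 14.2% of all 13035 genes tested. The lower share was 9.04% of members against 9.47% of all genes, and the higher share was 3.19% against 4.73%. The median log2 change was 0.04 over the members and 0.00 over all genes. At least 2-fold lower were 6 members, where 2.34% of all genes were called and at least that much lower, and 0 members were at least 2-fold higher. Those 6 include CR43634, and the 17 lower members also include CR43806. Both genes met the level rule through their control libraries. The control and mutant libraries did not overlap for 28 higher and 27 lower of the 188 members. Groups that did not overlap are common, being found in 32.6% of all genes. The split of the calls depended on scaling. Scaling to the column total gave 16 higher and 12 lower members and moved the median of all genes to 0.09, and scaling to 92 ribosomal protein genes gave 2 higher and 30 lower and moved it to -0.16. All directions below are relative to the deposited size factors.

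**Figure D1:**
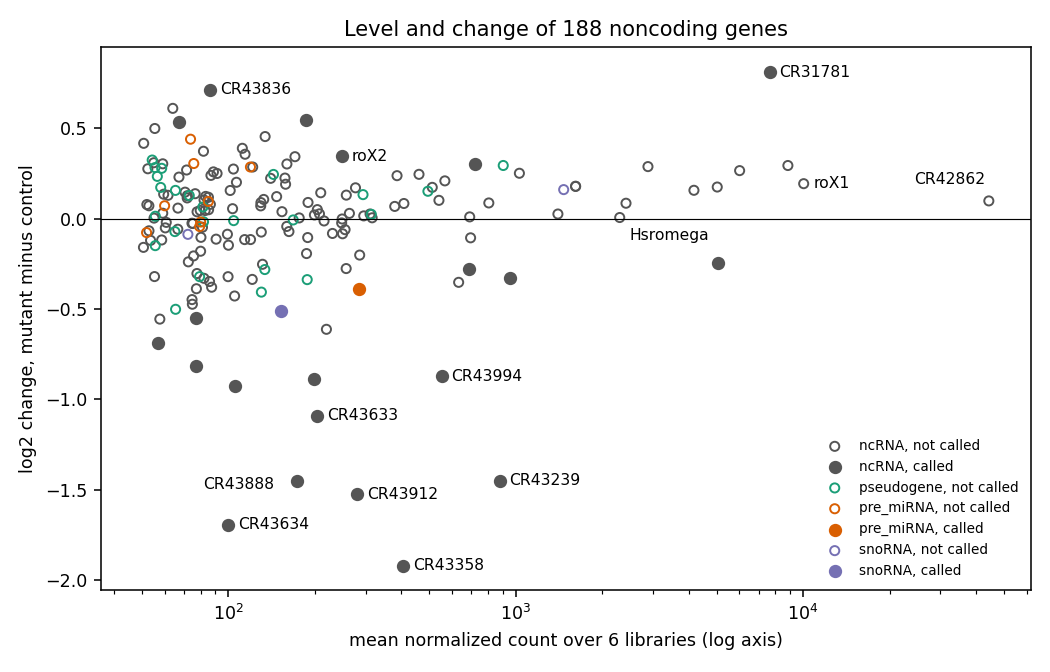
Mean normalized count over the 6 libraries (log10 axis) against the log2 change, mutant minus control, for the 188 noncoding genes, coloured by biotype, with filled points for called members. The 6 members that were at least 2-fold lower all have mean counts under 1000, and the most-read member, CR42862, lies close to 0.

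By biotype, the ncRNA class held 6 of the higher and 15 of the lower members. A single miRNA precursor, mir-2494, and a single snoRNA, snoRNA:83E4-5, were lower. None of the 24 pseudogenes was called by limma, although 3 had an unadjusted p under 0.05, and 0 were called in the authors' deposited table. Called shares were 13.8% of ncRNA genes, 11.1% of miRNA precursors, 33.3% of the 3 snoRNAs and 0% of pseudogenes. Over all genes the share was 14.2%, and the differences between biotypes were not tested. Of the 104 members that overlap a protein-coding gene by their deposited coordinates, 2 were higher and 8 lower. Of the 84 that overlap none, 4 were higher and 9 lower, and the latter include all 6 members that fell at least 2-fold. These are 9.62% and 15.5% called, against 14.2% of all genes, and the difference between them was not tested.

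Among the called members 10, of which 9 were lower and 1 was higher, kept their call in all 15 alternative settings of the fit, which include leaving out each library. They were CR43358, CR43634, CR43912, CR43888, CR43239, CR43633, CR43417, CR43994 and CR43650, which fell, and CR31781, which rose. No molecular role is known here for any of these RNAs, so they are described by their position and neighbours. All positions are on the dm3 build.

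CR43358 (FBgn0263090, 2L:18293733-18294029) had the largest fall. Its normalized counts were 549.7, 861 and 526 in the controls, against 139, 160.1 and 203 in the mutants. Every mutant library lay below every control library, and control replicate 2 was the highest. The means were 646 ± 187 and 167 ± 32.6 (SD, n = 3 each), a 3.79-fold fall and a log2 change of -1.92 ± 0.19 (limma adjusted p = 5.41e-05). The nearest coding gene, CG5790, lies 874 bp away and its log2 change was 0.08 (limma adjusted p = 0.586).

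CR43634 (FBgn0263625, 3R:21620570-21620908) and CR43633 (FBgn0263624, 3R:21619788-21620143) are 426 bp apart on opposite strands. CR43634 had counts of 146, 170.4 and 141 in the controls and 40.1, 42.8 and 57.7 in the mutants. Its groups did not overlap, and the log2 change was -1.69 ± 0.16 (limma adjusted p = 4.52e-05), a 3.24-fold fall. CR43633 had counts of 306, 312 and 218 in the controls and 144, 106 and 138 in the mutants, again without overlap. Its log2 change was -1.09 ± 0.16 (limma adjusted p = 0.000869), so both genes of the pair were lower. The log2 change of the coding gene nearest to CR43634, CG31093 at 4376 bp, was -0.01 (limma adjusted p = 0.962).

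CR43912 (FBgn0264513, 3L:13284300-13284870) fell from 446, 474 and 333 in the controls to 161, 136 and 132 in the mutants. The groups were far apart, with a log2 change of -1.53 ± 0.14 (limma adjusted p = 3.55e-05). Its nearest coding gene is Sfp70A4, a seminal fluid protein gene 4885 bp away, which also fell, with a log2 change of -1.20 ± 0.15 (limma adjusted p = 0.000282). CR43888 (FBgn0264480, 3L:21728966-21729301) had counts of 290.4, 269 and 206 in the controls and 93, 80.5 and 103 in the mutants, with no overlap. Its log2 change was -1.45 ± 0.15 (limma adjusted p = 6.06e-05), and CG14567, 1504 bp away, fell with a log2 change of -0.58 (limma adjusted p = 0.0299, called in 2 of the 6 fits that leave out a library). CR43239 (FBgn0262884, 2L:17353903-17354668) was the most read of the strong falls, at 1474, 1328 and 1055 in the controls and 492, 382 and 535 in the mutants. Its groups did not overlap and its log2 change was -1.45 ± 0.14 (limma adjusted p = 5.63e-05).

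**Figure D2:**
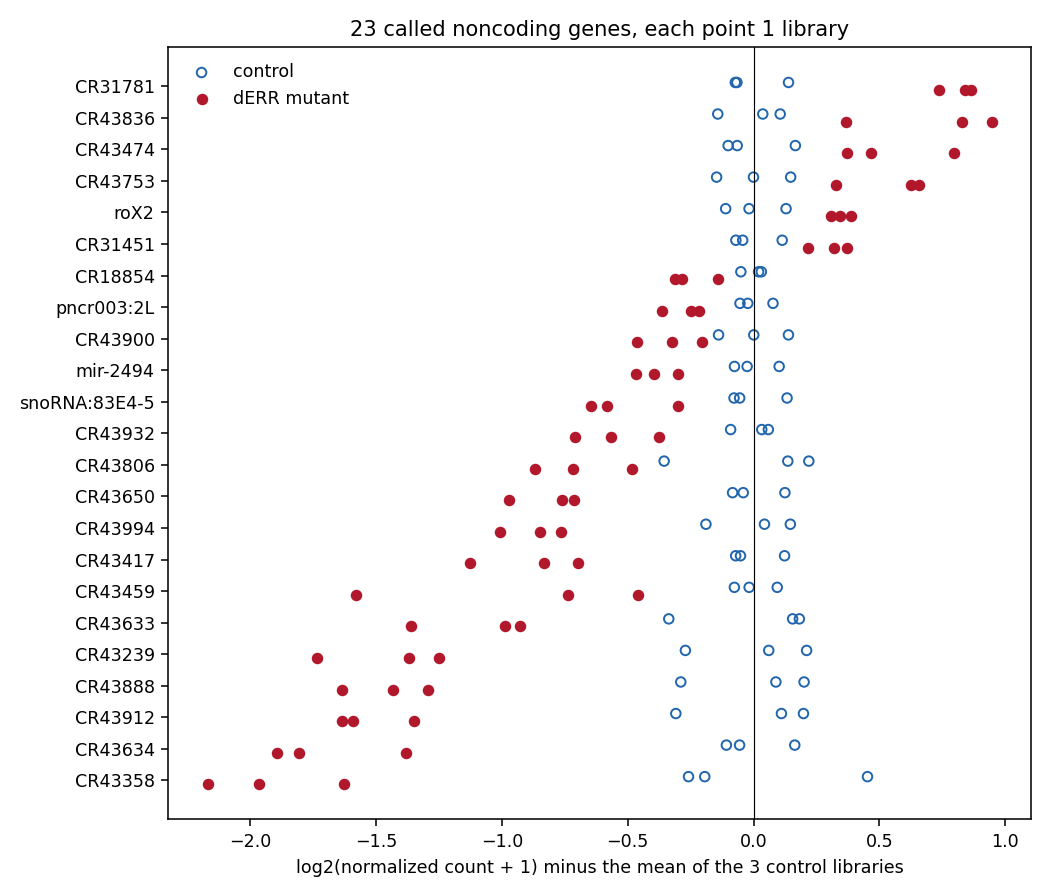
Log2(normalized count + 1) of each library minus the mean of the 3 control libraries, for the 23 called noncoding genes ordered by change, with open circles for controls and filled circles for mutants. The mutant libraries of 17 genes lie left of all controls and those of 6 lie right of them, from CR43358 at the bottom to CR31781 at the top.

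CR43417 and CR43650 are neighbours on 2R, 9859 bp apart. CR43417 (FBgn0263336, 2R:12705024-12706745) had counts of 249, 245 and 281 in the controls and 159, 144 and 117 in the mutants. Its log2 change was -0.89 ± 0.12 (limma adjusted p = 0.000662), and the 2 groups did not overlap. CR43650 (FBgn0263659, 2R:12716605-12723038) had counts of 92.9, 107 and 95.7 in the controls and 59.7, 49.7 and 57.7 in the mutants. All mutant libraries were below all controls, with a log2 change of -0.81 ± 0.14 (limma adjusted p = 0.00211). Close to CR43650, at 1294 bp, the coding gene CG34460 went the other way, with a log2 change of 0.34 ± 0.10 (limma adjusted p = 0.0467, called in 1 of the 6 fits that leave out a library).

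CR43994 (FBgn0264726, 3L:12020901-12021253) lies inside rols (rolling pebbles, an adaptor needed for myoblast fusion), on the opposite strand and with no shared exon in the current annotation. Its counts were 787, 733 and 623 in the controls and 418, 353 and 394 in the mutants. The groups did not overlap, and the log2 change was -0.87 ± 0.10 (limma adjusted p = 0.000195). The counts of rols were 409.9, 363 and 396 in the controls and 361, 318 and 406 in the mutants, which overlap, with a log2 change of -0.11 (limma adjusted p = 0.549). CG43993, 4403 bp from CR43994, fell by a similar amount, with a log2 change of -0.89 ± 0.13 (limma adjusted p = 0.000839).

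Among the remaining falls, several calls were lost when 1 library was left out. CR43459 (3R:5919484-5925937) had counts of 145, 134 and 129 in the controls and 81.2, 44.7 and 98.5 in the mutants, so all mutant libraries were lower and replicate 2 was lowest. Its log2 change was -0.93 ± 0.24 (limma adjusted p = 0.0231). Without mutant replicate 2 the change was -0.60 and the call was kept (adjusted p = 0.0183). The call was lost when any 1 of the control libraries was left out (adjusted p = 0.0581 to 0.104). CR43806 lies antisense within the calcium channel gene Ca-alpha1D and had counts of 76.9, 81.5 and 54.4 in the controls and 42.1, 49.7 and 37.8 in the mutants. The lowest control stood just above the highest mutant library, with a log2 change of -0.69 ± 0.19 (limma adjusted p = 0.0325), and the call was lost without control replicate 1 or 2 or mutant replicate 1 or 3 (adjusted p = 0.076 to 0.124).

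CR43932 (3L:3814698-3815240) lies antisense within Scsalpha, which encodes the alpha subunit of succinyl-CoA synthetase, and 598 bp from the accessory gland protein gene Acp63F. Its counts were 93.9, 86.1 and 95.7 in the controls and 70.5, 61.7 and 55.7 in the mutants, without overlap. The log2 change was -0.55 ± 0.14 (limma adjusted p = 0.0209), lost without control replicate 1 or 3 or mutant replicate 2 or 3 (adjusted p = 0.0545 to 0.0852). Acp63F changed by -1.13 ± 0.09 on the log2 scale (limma adjusted p = 1.33e-05), and Scsalpha by 0.03. Sfp70A4 and Acp63F are of the same kind as the 4 accessory gland markers whose sums are given above. The part of the accessory gland in the falls of CR43912 and CR43932 was not tested.

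The smallest falls were among well-read genes. CR43900 lies within the calmodulin gene Cam on the same strand, and 199 of its bases are exonic in Cam in the current annotation. Its counts were 1166, 961 and 1059 in the controls and 846, 768 and 919 in the mutants. The log2 change was -0.33 ± 0.09 (limma adjusted p = 0.0388), and that of Cam was -0.15 (limma adjusted p = 0.254). CR18854, named after its values were seen, had counts of 5594, 5551 and 5287 in the controls and 4490, 4963 and 4406 in the mutants, with a log2 change of -0.25 ± 0.07 (limma adjusted p = 0.0494). Both calls were lost when scaling to the column total or the upper quartile, and that of CR18854 was also lost without any 1 library other than mutant replicate 2 (adjusted p = 0.0863 to 0.187). CR43900 was lost without control replicate 1 or 3 or mutant replicate 1 or 2 (adjusted p = 0.0869 to 0.129).

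CR31781 (FBgn0051781, 2L:16869487-16878300) rose from 6095, 5264 and 5288 in the controls to 9904, 9218 and 10066 in the mutants. No mutant library came near the highest control. The means were 5549 ± 473 and 9729 ± 450 (SD, n = 3 each), a 1.76-fold rise with a log2 change of 0.81 ± 0.08 (limma adjusted p = 6.81e-05). The coding gene CG32832, 122 bp away, had a log2 change of 0.23 ± 0.08 (limma adjusted p = 0.0802).

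The other rises were smaller. CR43836 (X:8866946-8943024) spans several genes and shares 473 exonic bases on the same strand with CG10962. It had counts of 66.2, 58.3 and 69.5 in the controls and 125, 115 and 83.6 in the mutants. The groups did not overlap, the log2 change was 0.72 ± 0.17 (limma adjusted p = 0.0141), and CG10962 rose too, by 0.60 (limma adjusted p = 0.0149, called in 2 of the 6 fits that leave out a library). CR43474 is antisense within loco, which encodes a regulator of G-protein signalling, and had counts of 169, 144 and 140 in the controls and 195, 262 and 208 in the mutants. Its log2 change was 0.55 ± 0.13 (limma adjusted p = 0.0168) while that of loco was -0.09 (limma adjusted p = 0.506).

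CR43753 had counts of 54.4, 49.1 and 60.4 in the controls and 68.5, 86.5 and 84.6 in the mutants, a log2 change of 0.54 ± 0.15 (limma adjusted p = 0.0387). CR31451, now named mimi, had counts of 699, 627 and 615 in the controls and 751, 836 and 806 in the mutants, a log2 change of 0.30 ± 0.08 (limma adjusted p = 0.0304). In each of these 4 genes every mutant library was above every control library. Each of the 4 calls was lost without at least 3 single libraries, namely control replicate 2 and mutant replicates 1 and 2 for CR43836 (adjusted p = 0.0515 to 0.0575), control replicates 2 and 3 and mutant replicate 2 for CR43474 (0.0552 to 0.0775), all but mutant replicate 1 for CR43753 (0.055 to 0.131), and control replicates 2 and 3 and mutant replicates 2 and 3 for CR31451 (0.0875 to 0.128). Scaling to ribosomal protein genes ended the calls of CR43474 (adjusted p = 0.0529), CR43753 (0.142) and CR31451 (0.313).

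roX1 and roX2 are the X-encoded RNAs of the male-specific lethal complex, which binds the male X chromosome and raises its transcription. roX2 (FBgn0019660, X:11473089-11474465) had counts of 238, 215 and 201 in the controls and 285, 269 and 277 in the mutants. All mutant libraries were above all controls, with a log2 change of 0.35 ± 0.10 (limma adjusted p = 0.0331). The call was kept without control replicate 1 and lost without any 1 of the other libraries (adjusted p = 0.057 to 0.134), and the change was 0.19 when libraries were scaled to ribosomal protein genes (adjusted p = 0.235). The authors' deposited table gives roX2 an adjusted p of 0.0776. roX1 (FBgn0019661, X:3752929-3756720) had counts of 9786, 9460 and 8859 in the controls and 11102, 10454 and 10578 in the mutants. These groups did not overlap either, and the log2 change of 0.19 ± 0.08 did not pass (limma adjusted p = 0.126), although it passed with scaling to the column total (adjusted p = 0.0221). The difference between the roX RNAs was not tested. Of 6 measured genes for proteins of the complex, 0 were called by limma or in the authors' deposited table and 0 had an unadjusted p under 0.05, with a median log2 change of 0.04.

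**Figure D3:**
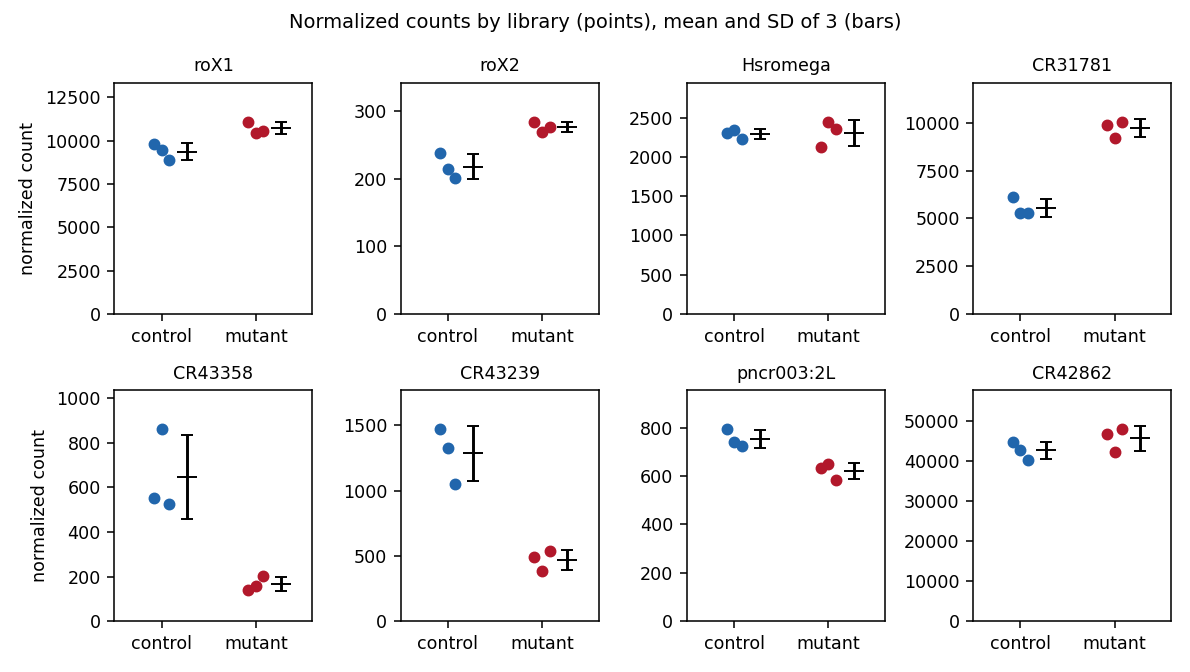
Normalized counts of 8 noncoding genes in each of the 3 control and 3 mutant libraries, as points on linear axes from 0, with the group mean and a bar of 1 SD beside them. CR31781 separates upward and CR43358 and CR43239 separate downward, while the libraries of Hsromega and CR42862 overlap.

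Hsromega (FBgn0001234, 3R:17121849-17143558) is the heat-inducible RNA that organizes the omega speckles, nuclear bodies that store RNA-binding proteins. Its counts were 2301, 2346 and 2229 in the controls and 2120.0, 2449 and 2349 in the mutants. The groups overlapped, and the log2 change was 0.01 ± 0.07 (limma adjusted p = 0.969), or -0.15 when scaled to ribosomal protein genes. Of 8 measured genes for omega-speckle proteins, 0 were called by limma or in the authors' deposited table and 0 had an unadjusted p under 0.05, with a median log2 change of -0.03.

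pncr003:2L (FBgn0047133, 2L:16837987-16841884) is annotated as noncoding in the deposited table, but is known to encode the Sarcolamban micropeptides, which regulate the calcium pump SERCA in muscle. Its counts were 795, 742 and 726 in the controls and 634, 648 and 585 in the mutants. The groups did not overlap, and the log2 change was -0.28 ± 0.08 (limma adjusted p = 0.0366). It was called without mutant replicate 2, but the call was lost without any 1 of the other libraries (adjusted p = 0.0713 to 0.148) and when scaling to the column total. The authors' deposited table gives it an adjusted p of 0.0545. The other putative noncoding transcripts of this series of names were not called: the log2 change of pncr009:3L was 0.00, that of pncr011:3L was 0.03 and that of pncr004:X was -0.32.

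The Uhg genes are hosts whose introns carry snoRNAs and whose spliced RNAs have no known function. Of the 6 members of this kind 0 were called by limma or in the authors' deposited table, and 1, Uhg7, had an unadjusted p under 0.05. Their log2 changes were 0.25 for Uhg7, 0.39 for Uhg3, 0.23 for Uhg4, 0.22 for Uhg1, 0.12 for Uhg2 and 0.02 for Uhg5. Uhg7, the most read, had counts of 929, 1032 and 859 in the controls and 1138, 1193 and 1023 in the mutants, which overlap only where control replicate 2 exceeds mutant replicate 3 (limma adjusted p = 0.0954). Among 9 measured genes for core snoRNP proteins and their assembly factors, 1 was called, where 14.2% of all genes were called. It was Fib (fibrillarin, the methyltransferase), which was higher at 0.35 ± 0.11 (limma adjusted p = 0.0495, called in 1 of the 6 fits that leave out a library). The authors' deposited table calls 0 genes of this list.

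RNaseP:RNA is the catalytic RNA that trims tRNA precursors at their 5′ ends, and it lies in an intron of CG1746. Its counts were 59.8, 63 and 58.4 in the controls and 45, 58.7 and 79.6 in the mutants, which overlap, with a log2 change of -0.02 ± 0.20 (limma adjusted p = 0.962). Of 7 measured genes for RNase P and MRP proteins, 0 were called by limma or in the authors' deposited table and 2 had an unadjusted p under 0.05. msa, a male-specific RNA of the bithorax complex with a known role in the accessory gland, had counts of 79, 76.9 and 52.4 in the controls and 66.6, 80.5 and 75.6 in the mutants. These also overlap, with a log2 change of 0.12 ± 0.18 (limma adjusted p = 0.737), and stand beside the lower accessory gland markers. The protein lists for the signal recognition particle (9 genes) and for 7SK and P-TEFb (5 genes) had 0 called genes each by limma and in the authors' deposited table, and 0 with an unadjusted p under 0.05.

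The 12 small-RNA members, 9 miRNA precursors and 3 snoRNAs, were for the most part embedded in coding genes. Of these, 11 had a coding partner, giving 12 pairs of which 9 were on the same strand, and in 7 pairs every annotated base of the small RNA lay within the partner's exons. Their counts were 0.27% to 39.7% of those of the partner. None of their ratios to a partner differed between the groups. The largest log2 ratio change was 0.18 in size the smallest adjusted p of a ratio was 0.629, and 0 ratios had an unadjusted p under 0.05 (limma).

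mir-2494 (3R:12444488-12444604) had counts of 317, 346 and 306 in the controls and 233, 262 and 245 in the mutants. Its groups did not overlap, and the log2 change of -0.39 ± 0.09 (limma adjusted p = 0.0157) stood beside -0.47 ± 0.07 in CG17560, the gene that contains it (limma adjusted p = 0.000762). snoRNA:83E4-5 (3R:2201081-2201220) had counts of 169, 171 and 195 in the controls and 118, 113 and 144 in the mutants. No mutant library reached the lowest control, and the log2 change of -0.51 ± 0.12 (limma adjusted p = 0.0175) equalled that of its host CG42564, -0.51 ± 0.07 (limma adjusted p = 0.000422). The log2 change of the ratio was 0.08 ± 0.09 for mir-2494 and -0.00 ± 0.15 for snoRNA:83E4-5. Both gene calls were lost without some single libraries, which were control replicate 2 and mutant replicates 1 and 3 for mir-2494 (adjusted p = 0.0558 to 0.0623) and control replicate 3 and mutant replicates 1 and 2 for snoRNA:83E4-5 (0.0579 to 0.0872).

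snoRNA:660, the most read small-RNA member, lies in an exon of the muscle actin gene Act57B. Its counts were 1398, 1364 and 1394 in the controls and 1578, 1527 and 1543 in the mutants. These groups did not overlap, yet the log2 change of 0.16 ± 0.06 did not pass (limma adjusted p = 0.138), and that of Act57B was 0.14 ± 0.08. mir-5614 overlaps CG3819 and had counts of 71.5, 62.1 and 69.5 in the controls and 82.2, 81.5 and 87.6 in the mutants. Its log2 change was 0.31 ± 0.13 (limma adjusted p = 0.157), and that of CG3819 was 0.33 (limma adjusted p = 0.0157). mir-997 is the small RNA that overlaps no coding gene, and its log2 change was 0.44 ± 0.17 (limma adjusted p = 0.128). Of 11 measured genes for miRNA processing, 1 was called, where 14.2% of all genes were called. It was Dcr-2, the nuclease of the siRNA pathway, which was lower at -0.29 ± 0.08 (limma adjusted p = 0.0371, called in 1 of the 6 fits that leave out a library).

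**Figure D4:**
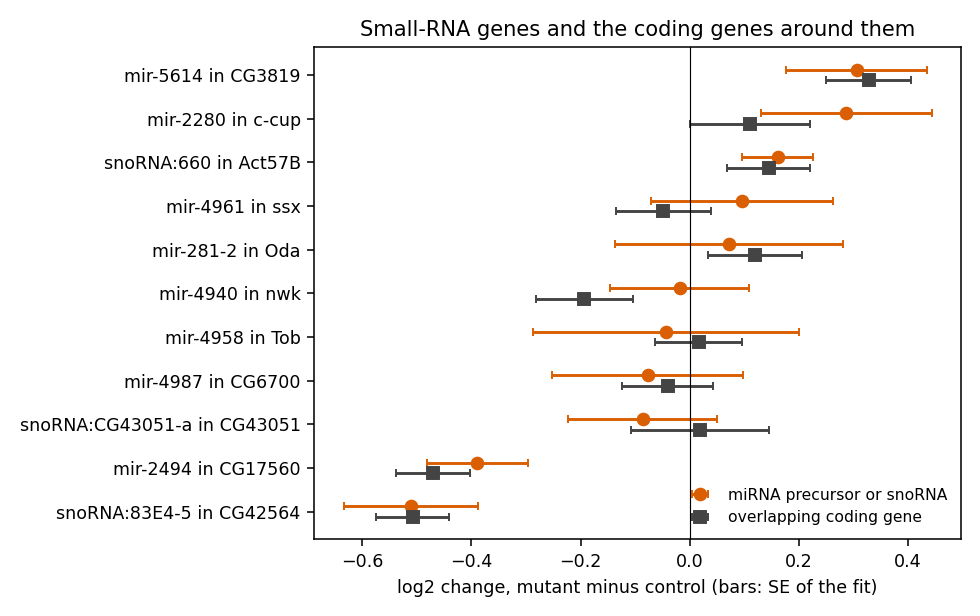
Log2 change, mutant minus control, of 11 small-RNA members (circles) and of a coding gene that overlaps each (squares), with bars of 1 SE. The pairs mir-2494 with CG17560 and snoRNA:83E4-5 with CG42564 lie lowest, and the circle and square of each are close together.

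Overlap reached well beyond the small RNAs. The 104 overlapping members formed 122 pairs with coding genes, 48 on the same strand, 65 on opposite strands and 9 of unknown orientation, and 73 pairs share exonic bases in the current annotation. In 47 members a partner had at least 10 times the member's level. No source used here gives the strand setting of the counting, so reads from the members of such a pair cannot be told apart from these files. For each pair, the log2 ratio of the member to its partner was compared between the groups. The ratio differed in 4 of the 122 pairs. These same 4 were the only pairs called among all 292 overlapping pairs with a noncoding gene, 284 of which have a coding partner. The share over all 292 pairs, 1.37%, is therefore not a separate background.

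In 2 of the 4 the coding gene fell and the noncoding gene was not called. CR43418 overlaps CG15096 by 72 bp on the opposite strand, which is 10.2% of its span. CG15096 had counts of 3777, 2992 and 3080 in the controls and 922, 689 and 748 in the mutants, a log2 change of -2.06 ± 0.12 (limma adjusted p = 1.45e-06). CR43418 had counts of 91.8, 97.2 and 85.6 in the controls and 82.2, 65.6 and 70.7 in the mutants, a log2 change of -0.33 ± 0.14 (limma adjusted p = 0.146), so every mutant library of both genes was below every control library. The ratio of CR43418 to CG15096 was therefore higher in the mutants, by 1.73 ± 0.16 on the log2 scale (limma adjusted p = 0.000744).

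CR43471 lies wholly within CG34316 on the opposite strand and was at a similar normalized count. CG34316 had counts of 93.9, 222 and 222 in the controls and 48, 48.7 and 49.8 in the mutants, so control replicate 1 stood well below the other controls but above all mutants. CR43471 had counts of 77.9, 95.4 and 76.5 in the controls and 101, 110.4 and 86.6 in the mutants, which overlap, with a log2 change of 0.25. The ratio changed by 2.0 ± 0.30 (limma adjusted p = 0.0112).

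CR43994 and rols, described above, formed the third pair, with a ratio change of -0.76 ± 0.12 (limma adjusted p = 0.0112). The fourth was CR43960 and the mucin gene Muc11A, on the same strand with no shared exon, with a ratio change of 0.44 ± 0.08 (limma adjusted p = 0.0224). Muc11A had counts of 5290.3, 5229 and 4913 in the controls and 4682, 4227 and 3976 in the mutants, and CR43960 had 1407, 1662 and 1478 and then 1701, 1785 and 1653. The counts of CR43960 were within 2% of those of CR32657, a noncoding gene that it overlaps by 485 bp. Whether any reads of CR43960 lie where it overlaps Muc11A cannot be told from these files. Without mutant replicate 3 the adjusted p was 0.0503 for the ratios of CR43471 and CR43994 and 0.073 for that of CR43960, and the last was also lost without control replicate 3 (adjusted p = 0.0571).

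**Figure D5:**
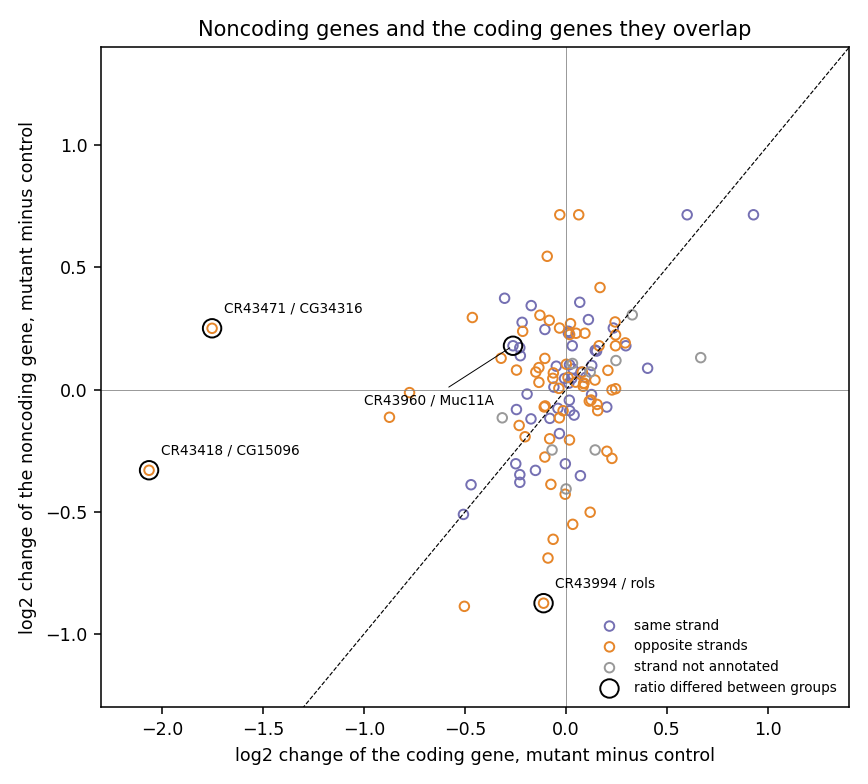
Log2 change of the coding gene (x axis) against that of the noncoding member that overlaps it (y axis), mutant minus control, for the 122 pairs, coloured by strand, with a dashed line of equal change and rings around the 4 pairs whose ratio differed. CG15096 and CG34316 lie far to the left, at -2.06 and -1.75, while their noncoding partners lie at -0.33 and 0.25.

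The most read noncoding gene was CR42862 (FBgn0262109, 3L:224106-230964). Its counts were 44872, 42920 and 40414 in the controls and 46968, 42245 and 48148 in the mutants, which overlap, with a log2 change of 0.10 ± 0.10 (limma adjusted p = 0.586). With quantile normalization the change was 0.33 and was called (adjusted p = 0.0104), and with ribosomal protein genes as the scale it was -0.06. The members together held 0.832% to 0.904% of the column total in the controls and 0.969% to 1.01% in the mutants. Without CR42862 the shares were 0.563% to 0.616% and 0.645% to 0.71%, so the groups did not overlap in either sum. Both sums include CR31781, a well-read gene with a log2 change of 0.81, and sums without it were not compared. A share also depends on the column total, and scaling to that total moved the median log2 change of all genes to 0.09. A general rise of the members was not tested. Per kilobase of exon in the current annotation, CR9284 reached a mean normalized count of 9951 and CR42862 reached 8070, against 106 for the far longer Hsromega.

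CR9284 and CR17567 were the next most read genes with a change near the threshold. CR9284 had counts of 7000.4, 8734 and 8140 in the controls and 9080, 10348 and 9775 in the mutants, with a log2 change of 0.29 ± 0.10 (limma adjusted p = 0.0664). CR17567 had counts of 5023, 5820 and 5520 in the controls and 6032, 7137 and 6523 in the mutants, with a log2 change of 0.27 ± 0.09 (limma adjusted p = 0.0697). In both, all mutant libraries were above all controls. The authors' deposited table gives adjusted p-values of 0.0255 for CR9284 and 0.0354 for CR17567.

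On the X chromosome 2 of 31 members were higher and 0 were lower by limma, and none of the lower values had an unadjusted p under 0.05. Of 1709 coding genes on the X with the same minimum level, 89 were higher and 137 lower. The higher shares were 6.45% of the X-linked members, 5.21% of these coding genes and 4.73% of all genes. The lower shares were 0%, 8.02% and 9.47%, and the differences were not tested. On 2R 0 of 24 members were higher and 3 lower, and on 3L 0 of 38 were higher and 4 lower. A group of X-linked members that lie close together was chosen after its values were seen. CR32661 had counts of 2340, 2807 and 2642 in the controls and 3099, 3448 and 2961 in the mutants, with a log2 change of 0.29 ± 0.09 (limma adjusted p = 0.0536). CR32658 had counts of 4292, 5086 and 4785 and then 5228, 5646 and 5098, with a log2 change of 0.18 ± 0.08 (limma adjusted p = 0.205). In both genes the lowest mutant library was above the highest control. The log2 change was 0.17 for CR43157 (limma adjusted p = 0.215), 0.09 for CR32660 (0.532) and 0.18 for CR43960 (0.179). CR43960 and CR32657 had counts within 2% of each other in every library, so they give 1 measurement. Both are nevertheless included in all counts and sums of members given here.

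The 24 pseudogenes ranged from -0.50 to 0.32 in log2 change. CR33319, the most read, had counts of 842, 941 and 600.2 in the controls and 588, 1333 and 1121 in the mutants, with a log2 change of 0.29 ± 0.26 (limma adjusted p = 0.523). Its mutant libraries lay both below and above the controls. Without mutant replicate 1 the change was 0.65 and was called (adjusted p = 0.0285), and without mutant replicate 2 it was 0.06. swaPsi, a copy of the swallow gene, had a log2 change of 0.15 (limma adjusted p = 0.376), and CR18228 had one of 0.02. A pseudogene shares sequence with its parent, so how reads were split between the copies is uncertain.

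Annotation has moved since these files were made. Of the 188 members, 175 were found in the reference tables by identifier, and 9 of these are now protein-coding, of which 0 were called by limma or in the authors' deposited table and 1 had an unadjusted p under 0.05. Of the members now named as long noncoding RNAs, 5 of 94 were higher and 11 lower, and of those now named as antisense RNAs, 1 of 28 was higher and 1 lower. Of the 13 members with no entry, 3 were lower, namely CR43239, pncr003:2L and CR18854. Called shares were 17.0% of the long noncoding RNAs, 7.14% of the antisense RNAs and 23.1% of members with no entry, against 14.2% of all genes. The differences between these shares were not tested.

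The precision of these comparisons was lower than for coding genes of the same minimum level. The median coefficient of variation within a group was 11% in both groups for the members, against 7.48% in the controls and 6.98% in the mutants for 11040 coding genes. Levels above that minimum were not matched. For members with a mean of 50 to 100 the median was 12.8% in the controls and 12.7% in the mutants. For members with a mean of at least 1000 it was 8.12% and 6.13%. Of 86 members with a mean count of 50 to 100, 2 were higher and 4 lower. Of 86 with a mean of 100 to 1000, 3 were higher and 12 lower, and of 16 with a mean of at least 1000, 1 was higher and 1 lower. From the lowest to the highest level, 6.98%, 17.4% and 12.5% were called, against 14.2% of all genes. The differences between these shares were not tested.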

How the data were processed

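Poly(A)-selected, strand-specific RNA libraries of 6 whole-fly samples were analysed from 1 table. The authors' deposited values are normalized counts, a signal obtained by dividing reads per gene by a library size factor. The submitters' processing notes name Novoalign, DESeq2 and, as build, dm3. No source used here gives the counting step. The deposited table also holds log2 fold changes, a test statistic (a score) and p-values of the authors.

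Here, limma 3.58.1 (R 4.3.3) with an intensity trend was fitted to log2(normalized count + 1) of all 13035 genes, mutant against control, with Benjamini-Hochberg adjustment and a threshold of 0.05. Fold changes on this scale understate changes of low genes. Ratios of 292 overlapping pairs were fitted in the same way. The scripts were tested on simulated data. All 6 per-sample columns were mapped by name.

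Deposited starts count from 0 and were raised by 1. Strand, exons, lengths and current names came from a later annotation, matched by identifier, whose coordinates were not mixed with dm3. The members, gene lists and tests were chosen with earlier results of these data known. Genes named are ERR, called members (up to 15 in each direction), the 3 most read members per biotype, members with a known RNA, their coding partners and the called genes of each protein list. Alternatives were other pseudocounts, scalings, filters, limma-voom, a robust variance prior, a threshold of 0.01 and leaving out each library.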

Additional observations from a re-analysis of the deposited data

How the results depend on the processing

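Of 23 called members, 0 changed sign under any alternative run, while 11 of the 45 members tested one by one, all uncalled, did so. Scaling to ribosomal protein genes turned the log2 change to -0.13 for CR18228, -0.061 for CR42862, -0.15 for Hsromega, -0.034 for Uhg2, -0.14 for Uhg5, -0.062 for mir-4961, -0.042 for msa, -0.15 for pncr009:3L, -0.13 for pncr011:3L and -0.0072 for swaPsi. RNaseP:RNA turned to 0.0644 with the column total, 0.018 with the upper quartile, 0.036 with quantile normalization and 0.0642 with limma-voom. Leaving out each library gave -0.039 to 0.078 for CR18228, -0.038 to 0.066 for Hsromega, -0.23 to 0.18 for RNaseP:RNA, -0.0701 to 0.10 for Uhg5, -0.088 to 0.19 for mir-4961, -0.073 to 0.22 for msa, -0.056 to 0.061 for pncr009:3L and -0.055 to 0.10 for pncr011:3L. The balance of the calls also turned, since higher members outnumbered lower ones with the column total and limma-voom. Calls were gained by CR9284, Uhg7 and snoRNA:660 with the column total (adjusted p = 0.0267, 0.0331 and 0.0237). The count of higher members, 6 in the analysis reported, was 16 with scaling to the column total, 14 with limma-voom, 2 with scaling to ribosomal protein genes and 1 at an adjusted p under 0.01, and it ranged from 1 to 6 when each library was left out. The count of lower members, 17 in the analysis reported, was 12 with the column total and with limma-voom, 30 with scaling to ribosomal protein genes, 9 at an adjusted p under 0.01 and 9 among members that overlap no coding gene, and it ranged from 11 to 16 when each library was left out. The count of members whose ratio to an overlapping coding gene differed ranged from 1 to 5 when each library was left out. The cause of the differences between scalings was not tested. The authors' deposited table calls 23 members, 19 of them also called here. No paired analysis was possible because the labels give the libraries no shared replicate numbers. Counts of 50 to 100 in 86 of the members and 3 libraries a group limit the size of change that could be detected.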

Other observations

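Some members varied widely within a group, and 3 of these, chosen after their values were seen, are given here. snmRNA:128 and snmRNA:765, both within the muscle gene Msp-300, had counts of 102, 88 and 94.7 and of 104, 88 and 89.6 in the controls. In the mutants they had 94.9, 37.8 and 106 and 83.2, 43.8 and 108, so mutant replicate 2 was the lowest library for both. CR43752, which lies within Btk29A, had counts of 366, 251 and 184 in the controls and 141, 224 and 149 in the mutants, with a log2 change of -0.61 ± 0.23 (limma adjusted p = 0.117). Of the 300 noncoding genes under the level rule, 5 were higher and 11 were lower by limma, which is 5.33% called against 14.2% of all genes.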
